A study of Mus musculus with 15 samples.

Results

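The 39 genes described here encode the chaperones, folding enzymes, membrane translocation machinery and stress sensors of the endoplasmic reticulum (ER). They were taken by gene symbol from a list and sorted by function into 15 chaperones and folding factors, 7 disulfide enzymes, 7 genes of ER-associated degradation, 7 translocon genes and 3 sensors. The sensor class holds Atf6, Ern1 and Xbp1, a factor downstream of Ern1, and not the PERK gene Eif2ak3. All 39 were found among the 13342 genes of the count table, and all 39 were among the 12798 that passed the filter on low counts. The cells were RAW264.7, an established mouse macrophage line derived from a virus-induced tumour, kept in 10% serum at passages 6 to 14. RNA was sequenced from 3 libraries of untreated cells (control) and 3 of cells given each of 4 silica particles, to ask how particle type changes macrophage gene expression. Stober50 and Stober500 are nonporous Stober silica of nominal size 50 and 500 nm, MSN500 is mesoporous silica of 500 nm, and MSN-PEG500 is mesoporous silica of 500 nm carrying polyethylene glycol. The dosage labels read 13.1 (Stober50), 16.8 (Stober500), 111.8 (MSN500) and 84 µg/ml (MSN-PEG500), and they can be read as the dose or as the LC50 behind it. Particle and dosage changed together and cannot be told apart. The labels give 24 h of exposure in one protocol and 4 h in another, so the time is uncertain.

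Proteins bound for secretion or for membranes enter the ER through the Sec61 translocon, fold with the help of chaperones and disulfide isomerases, and are returned to the cytosol for degradation when folding fails. The chaperone BiP (Hspa5) binds unfolded protein and, at rest, the sensors PERK, IRE1 (Ern1) and ATF6. Release of the sensors starts the unfolded protein response, in which cleaved ATF6 and the spliced form of XBP1 enter the nucleus and turn on chaperone and degradation genes, while PERK slows translation and raises ATF4 and CHOP. Macrophages secrete cytokines and lysosomal enzymes, and the IRE1 arm is also known to take part in their inflammatory responses.

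Cleaved ATF6, together with the factor NF-Y, is known to bind the ER stress element, which is CCAAT and CCACG separated by 9 bases. RefSeq windows from 250 bases before to 50 bases after the annotated start (build GRCm38.p6) were present for 31 of the 39 genes. An exact ER stress element on either strand was found in 8 of these 31 genes (25.8%), against 37 of 27025 genes in the whole table (0.137%). ER stress element II, here ATTGG and CCACG separated by 1 base, was in 2 of the 31, Herpud1 and Dnajb11, against 12 genes of the table (0.0444%). The core site of XBP1, TGACGTGG, was in 2 of the 31, Txndc5 and Txndc11, against 193 genes of the table (0.714%). The site of Dnajb11 lies after the annotated start and is not shown. No base of a match was shared by matches to different motifs among these genes, and a match is a description of the sequence, not evidence of binding. Hspa5 and Creld2 are shown first because the first is the central chaperone of the response and the second had the largest change below. The others are shown because they hold the same elements at other distances and on either strand. All are written in the direction of the gene, with the motif bases in capitals. In the stretches with an ER stress element, CGTGG followed by ATTGG marks an element read from the opposite strand, as in Creld2 and Calr. The matches printed for Herpud1, Txndc11 and Txndc5 lie on the strand of the gene.
Hspa5: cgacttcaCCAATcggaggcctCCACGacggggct
Creld2: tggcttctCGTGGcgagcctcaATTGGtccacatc
Calr: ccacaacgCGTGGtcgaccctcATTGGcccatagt
Canx: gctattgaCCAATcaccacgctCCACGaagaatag
Dnajc3: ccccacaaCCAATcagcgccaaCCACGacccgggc
Pdia6: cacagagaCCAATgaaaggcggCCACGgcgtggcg
Syvn1: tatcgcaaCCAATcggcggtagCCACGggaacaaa
Herpud1: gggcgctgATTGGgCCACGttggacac
Txndc11: agtgtggcTGACGTGGagagtccg
Txndc5: ctcgccgcTGACGTGGcgctagcc

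The Hspa5 stretch is chr2:34772017-34772051 on the plus strand, and its element begins 65 bases before the annotated start. In Creld2 (chr15:88819512-88819546, plus strand) the element begins 126 bases before the start. On the plus strand lie also the stretches of Dnajc3 (chr14:118937819-118937853), Pdia6 (chr12:17266483-17266517), Syvn1 (chr19:6046524-6046558) and Herpud1 (chr8:94386369-94386395). The minus strand carries those of Calr (chr8:84847067-84847101), Canx (chr11:50325792-50325826), Txndc11 (chr16:11134619-11134642) and Txndc5 (chr13:38528037-38528060). Across these genes the motifs begin between 44 bases (Syvn1) and 162 bases (Calr) before the start. All these distances are from the RefSeq start. The deposited annotation of Hspa5, Txndc11 and Txndc5 begins further upstream, so their matches lie inside the deposited genes. Hsp90b1 holds a pair of ER stress elements, which begin 212 and 107 bases before its start.

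In untreated cells these genes were strongly expressed. Their median level was 71.5 FPKM (the authors' counts scaled by exon length and by the reads of the library), against 8.7 FPKM over all genes tested. Hspa5 was highest at 850 ± 37.1 FPKM (SD, n = 3, as for all group means), followed by the disulfide isomerase P4hb at 755 ± 31.1, the calcium-binding lectin chaperone Calr (calreticulin) at 720 ± 20.1 and Hsp90b1 (GRP94, the ER form of HSP90) at 628 ± 27.8. The ranges of Hspa5 and P4hb did not overlap, nor did those of P4hb and Hsp90b1, while P4hb and Calr overlapped. The sensors were spread along this order. Xbp1 stood 12th at 110 ± 4.13 FPKM, Atf6 stood 32nd at 27.0 ± 0.541 and Ern1 was last at 3.42 ± 0.083. Dnajc1, an ER membrane J-domain protein, was just above it at 3.70 ± 0.0928. At the read totals of these libraries a count of 0 allows up to 0.110 to 0.170 CPM (a gene's counts divided by the TMM-adjusted size of its library), and every gene of the list lay far above that in each library.

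**Figure D1:**
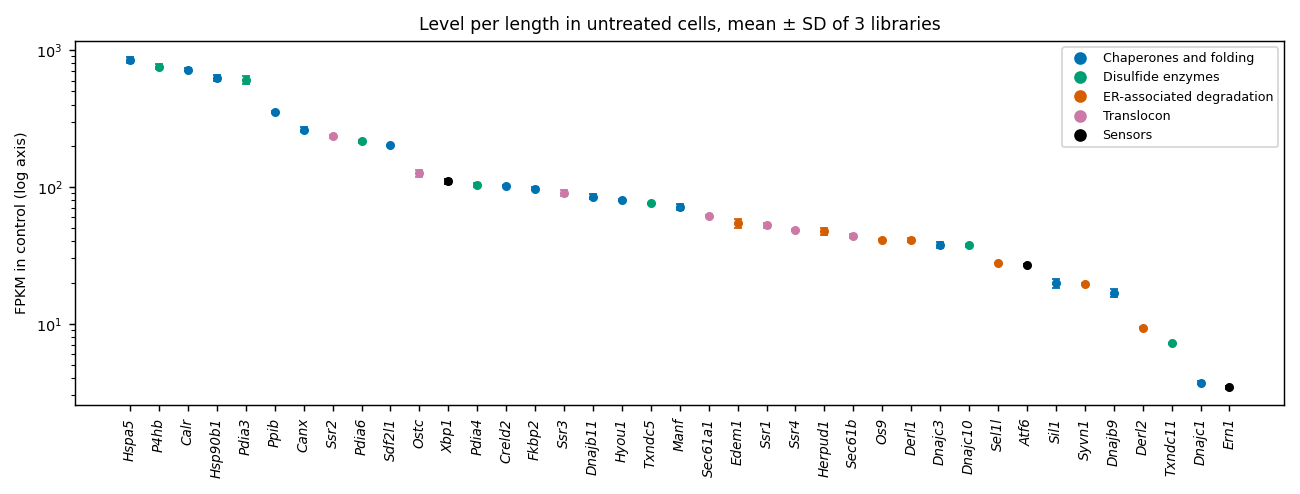
Level of each of the 39 genes in untreated cells in FPKM on a log axis, as the mean and SD of 3 libraries, coloured by function. Hspa5 is highest at 850 FPKM, and the sensor Ern1 is lowest at 3.42 FPKM.

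Both mesoporous particles were accompanied by higher levels of most folding and degradation genes, while none of the sensor genes was called higher. With MSN500, 31 of the 39 genes rose and 2 fell (Xbp1 and Atf6) (edgeR's quasi-likelihood test, threshold 0.05). Each adjusted p below is from that test, with Benjamini-Hochberg adjustment over all genes. Of all 12798 genes tested, 21.6% rose and 21.2% fell in that comparison. With MSN-PEG500, 28 rose and 1 fell (Atf6), where 17.5% of all genes rose and 16.9% fell. Both comparisons use the same 3 control libraries. For 31 of the 39 genes all MSN500 libraries lay above control and for 5 below, against 26.5% and 26.3% of all genes. For MSN-PEG500 these numbers were 28 and 1, against 21.4% and 21.3%. The median log2 change of the 39 genes was 0.26 with either particle, against -0.00 and -0.01 over all genes tested. The list was chosen with earlier results of these data known. These counts and medians are therefore a description, and the list was not tested as a set. Changes were small: Creld2 and Manf alone reached 1.5-fold, with either particle, and the largest change was 1.67-fold (Creld2 with MSN500). In the test of all 5 groups 34 of the 39 genes were called, against 49.7% of all genes. Nothing in the labels tells whether replicate libraries came from separate cultures. A p-value here therefore measures only how these libraries scatter, and that scatter may be technical. Each library holds RNA of many cells, so a change in part of the cells and a change in every cell cannot be told apart. Counts are relative to the library, so a change in the total RNA of a cell would not be seen.

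**Figure D2:**
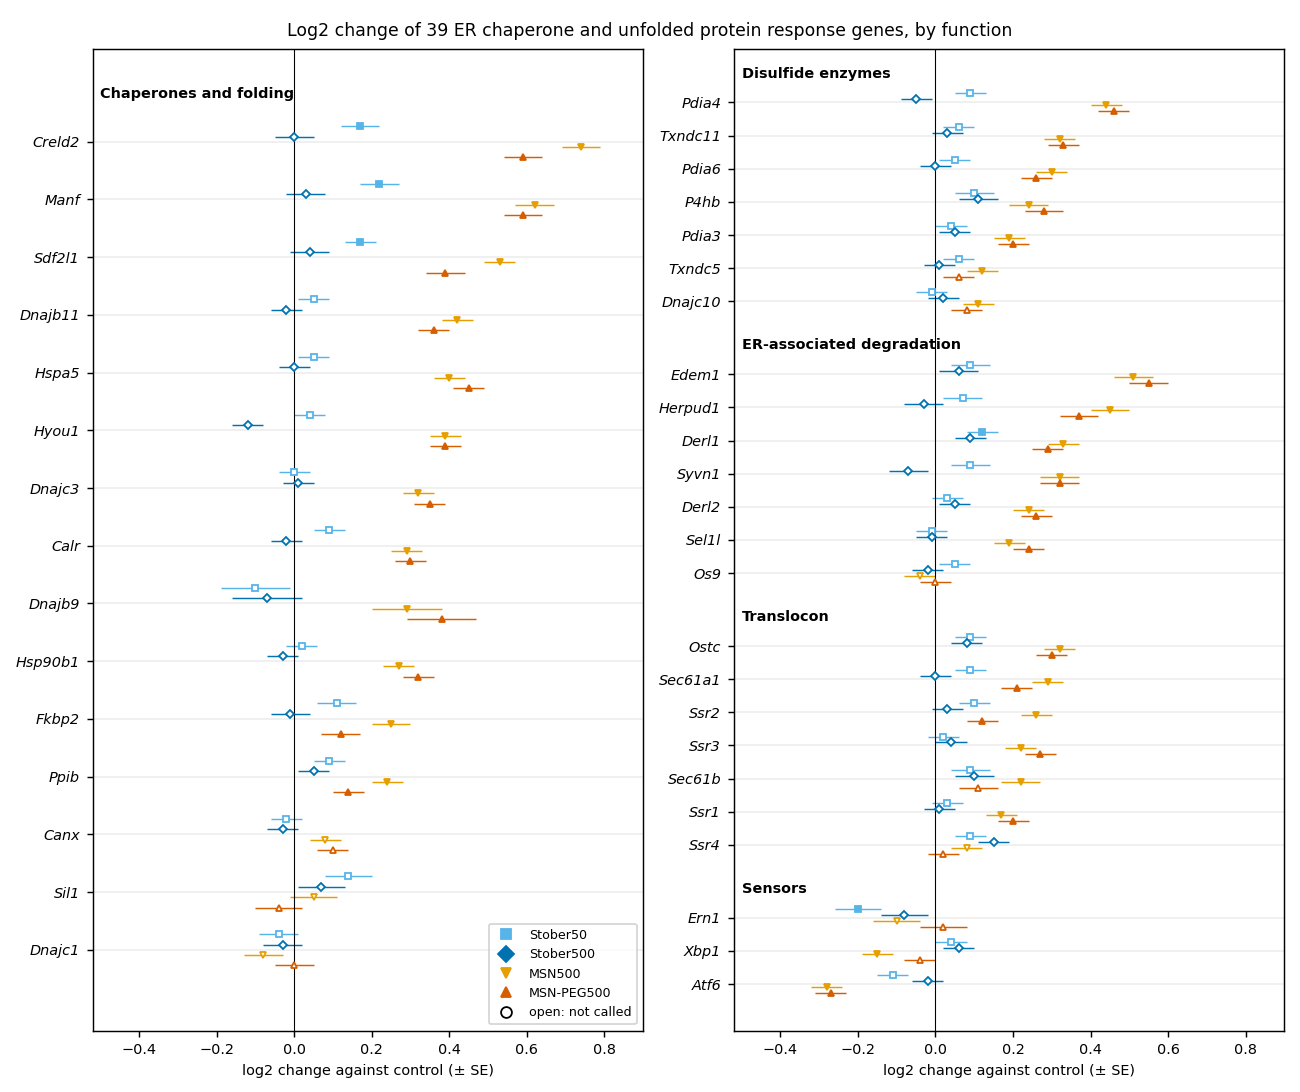
Log2 change against control, with its SE, of each of the 39 genes with each of the 4 particles, by function. Filled symbols passed an adjusted p under 0.05; MSN500 and MSN-PEG500 lie to the right of 0 for most genes outside the sensors, up to 0.74 for Creld2.

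Among the chaperones and folding factors, 12 of 15 rose with MSN500 and 12 of 15 with MSN-PEG500, and none fell. Of all genes tested, 21.6% rose and 21.2% fell with MSN500, and 17.5% rose and 16.9% fell with MSN-PEG500. Hspa5 was at 3067, 2852 and 2859 CPM in control, 2912, 3018 and 3146 in Stober50, 2913, 2884 and 2973 in Stober500, 3815, 3854 and 3919 in MSN500 and 3953, 3922 and 4140 in MSN-PEG500, in the order of the replicate numbers. All 6 mesoporous libraries were above the other 9. The log2 change of Hspa5 was 0.40 ± 0.04 (SE) with MSN500 (adjusted p = 5.02e-09) and 0.45 ± 0.04 with MSN-PEG500 (adjusted p = 6.7e-10). Creld2 (chr15:88819646-88826681, GRCm38, plus strand) encodes a secreted disulfide isomerase-like protein known as an ER stress target. Its values were 137, 137 and 136 CPM in control, 141, 162 and 156 in Stober50, 139, 136 and 133 in Stober500, 230, 222 and 231 in MSN500 and 211, 215 and 192 in MSN-PEG500. Both mesoporous groups lay wholly above the others, and the 3 MSN-PEG500 libraries were below the 3 MSN500 libraries. The rise was 0.74 ± 0.05 with MSN500 (adjusted p = 5.46e-13) and 0.59 ± 0.05 with MSN-PEG500 (adjusted p = 6.79e-11). Manf (chr9:106838312-106891979, minus strand) encodes a small secreted factor that binds BiP. It stood at 259, 232 and 250 CPM in control, 263, 301 and 299 in Stober50, 247, 253 and 258 in Stober500, 388, 367 and 384 in MSN500 and 386, 381 and 350 in MSN-PEG500. The mesoporous libraries were again above all others. Log2 changes were 0.62 ± 0.05 with MSN500 and 0.59 ± 0.05 with MSN-PEG500. Exons of Dcaf1 on the opposite strand cover 4.14% of the exonic bases of Manf, and no source used here says whether the counting kept the strands apart.

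Sdf2l1, a cofactor of BiP and its J-domain partners, had 216, 218 and 221 CPM in control, 231, 260 and 248 in Stober50, 232, 225 and 218 in Stober500, 318, 313 and 316 in MSN500 and 295, 300 and 266 in MSN-PEG500. Its mesoporous libraries lay above the other 9, although MSN-PEG500 replicate 3 was close to the highest Stober50 library. It rose by 0.53 ± 0.04 with MSN500 (adjusted p = 2.25e-10) and by 0.39 ± 0.05 with MSN-PEG500 (adjusted p = 8.28e-08). Hyou1 (GRP170), which exchanges the nucleotide of BiP, had 579, 561 and 568 CPM in control, 554, 597 and 605 in Stober50, 545, 509 and 516 in Stober500, 752, 729 and 749 in MSN500 and 763, 763 and 714 in MSN-PEG500. The mesoporous libraries were the highest, and the 3 Stober500 libraries lay below the control libraries without passing the test (adjusted p = 0.214). Its log2 change was 0.39 ± 0.04 with MSN500 and 0.39 ± 0.04 with MSN-PEG500. Sil1, the other exchange factor of BiP on the list, was not called with either mesoporous particle, at log2 changes of 0.05 ± 0.06 and -0.04 ± 0.06.

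The J-domain partners of BiP differed among themselves. Dnajb11 (log2 0.42 ± 0.04 with MSN500 and 0.36 ± 0.04 with MSN-PEG500) and Dnajc3, also an inhibitor of PERK (0.32 ± 0.04 and 0.35 ± 0.04), rose with both. Dnajb9, which represses IRE1 by recruiting BiP, was low in level, with 28.9 to 32.6 CPM in control, and rose by 0.29 ± 0.09 and 0.38 ± 0.09. Its call with MSN500 was lost when a trend on gene length was removed (adjusted p = 0.0526, in a range of 0.000389 to 0.0526 over all alternatives). Dnajc1 was not called, at -0.08 ± 0.05 and -0.00 ± 0.05, and its exons share 6.43% of their bases with Mllt10 on the other strand. Hsp90b1 rose by 0.27 ± 0.04 with MSN500 and 0.32 ± 0.04 with MSN-PEG500. Among the lectin chaperones, Calr rose by 0.29 ± 0.04 and 0.30 ± 0.04. Its membrane-bound relative Canx (calnexin) did not pass the test (0.08 ± 0.04, adjusted p = 0.142, and 0.10 ± 0.04, adjusted p = 0.0548). That absence of a call depended on the setting: with MSN-PEG500 Canx was called in 8 of 14 alternatives, among them without control replicate 1 and without MSN-PEG500 replicate 2, and with MSN500 in 1, with the length trend removed. The 95% interval of the Canx change with MSN500, -0.01 to 0.16, lies below that of Calr, 0.21 to 0.37; the difference itself was not tested. The prolyl isomerases Ppib (0.24 ± 0.04 with MSN500, 0.14 ± 0.04 with MSN-PEG500) and Fkbp2 (0.25 ± 0.05 and 0.12 ± 0.05) rose. The Fkbp2 call with MSN-PEG500 had an adjusted p of 0.0471 and was lost in 8 of 14 alternatives (adjusted p from 0.00411 to 0.168), among them without control replicate 2 (0.131) or 3 (0.0689) and without MSN-PEG500 replicate 1 (0.118) or 2 (0.168). Snx22 overlaps 25.0% of the exonic bases of Ppib on the opposite strand and was not in the count table.

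**Figure D3:**
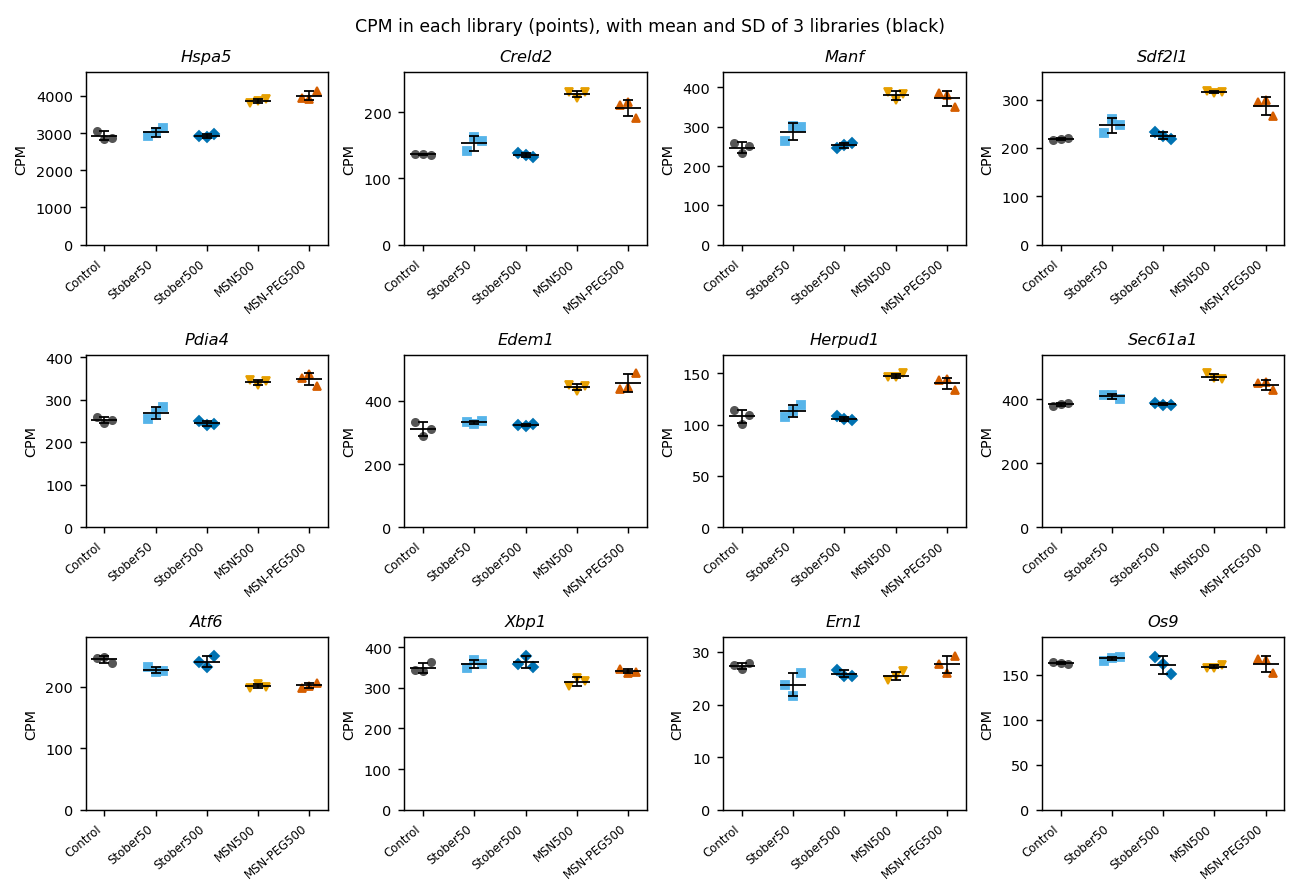
CPM of 12 genes in each library (points), with the mean and SD of the 3 libraries of each group in black, and axes that start at 0. Creld2 stands at 222 to 231 CPM in MSN500 against 136 to 137 in control, while Atf6 is lower with both mesoporous particles and Os9 stays between 151 and 170 CPM in all libraries.

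The 7 disulfide enzymes form and rearrange cysteine bonds in folding proteins. All 7 rose with MSN500 and 5 with MSN-PEG500, where 21.6% and 17.5% of all genes rose. Pdia4 (ERp72) had 260, 245 and 252 CPM in control, 254, 268 and 284 in Stober50, 251, 241 and 242 in Stober500, 346, 335 and 344 in MSN500 and 352, 360 and 332 in MSN-PEG500. Its 6 mesoporous libraries lay above the other 9, and the log2 change was 0.44 ± 0.04 with MSN500 (adjusted p = 2.37e-09) and 0.46 ± 0.04 with MSN-PEG500 (adjusted p = 1.08e-09). Pdia6 (P5), an isomerase that also acts on the IRE1 and PERK sensors, had 806, 809 and 767 CPM in control, 808, 847 and 808 in Stober50, 809, 761 and 814 in Stober500, 978, 980 and 977 in MSN500 and 956, 983 and 918 in MSN-PEG500. Again no mesoporous library fell within the range of the other groups (log2 0.30 ± 0.04 and 0.26 ± 0.04). Txndc11, a thioredoxin-domain protein, had 62.3, 61.6 and 62.2 CPM in control, 61.6, 66.1 and 65.6 in Stober50, 63.9, 64.1 and 61.7 in Stober500, 79.7, 76.7 and 76.2 in MSN500 and 76.7, 81.5 and 75.1 in MSN-PEG500. It rose by 0.32 ± 0.04 and 0.33 ± 0.04 and separated the groups in the same way. P4hb rose by 0.24 ± 0.05 with MSN500 and 0.28 ± 0.05 with MSN-PEG500, and Pdia3 (ERp57), the partner of calnexin and calreticulin, by 0.19 ± 0.04 and 0.20 ± 0.04. Txndc5 (ERp46) and Dnajc10 (ERdj5, a reductase of misfolded proteins) rose with MSN500 by 0.12 ± 0.04 and 0.11 ± 0.04 and were not called with MSN-PEG500 (0.06 ± 0.04 and 0.08 ± 0.04). Dnajc10 was lost in 6 of 14 alternatives (adjusted p from 0.00913 to 0.123), among them without control replicate 3 (0.120) and without MSN500 replicate 1 (0.0555), replicate 2 (0.0991) and replicate 3 (0.0847).

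Of the 7 genes of ER-associated degradation, 6 rose with each mesoporous particle and none fell. The shares of all genes that rose were 21.6% (MSN500) and 17.5% (MSN-PEG500). Edem1, a lectin that delivers misfolded glycoproteins for degradation and is a known XBP1 target, had 334, 288 and 312 CPM in control, 334, 326 and 336 in Stober50, 324, 321 and 327 in Stober500, 451, 432 and 447 in MSN500 and 437, 445 and 488 in MSN-PEG500. The mesoporous libraries were above all others, with log2 changes of 0.51 ± 0.05 for MSN500 (adjusted p = 6.58e-10) and 0.55 ± 0.05 for MSN-PEG500 (adjusted p = 2.01e-10). Herpud1, a membrane adaptor of the degradation complex that is quickly induced in ER stress, had 114, 101 and 109 CPM in control, 107, 113 and 119 in Stober50, 108, 105 and 104 in Stober500, 146, 146 and 150 in MSN500 and 143, 144 and 134 in MSN-PEG500. It rose by 0.45 ± 0.05 and 0.37 ± 0.05, with no overlap between mesoporous and other libraries. Syvn1, the ubiquitin ligase HRD1 at the centre of the pathway, had 90.6, 90.6 and 92.9 CPM in control, 93.4, 97.1 and 101 in Stober50, 88.2, 91.9 and 81.2 in Stober500, 114, 111 and 117 in MSN500 and 117, 116 and 108 in MSN-PEG500. Each mesoporous library was above the other 9. Its transcript rose by 0.32 ± 0.05 with MSN500 and 0.32 ± 0.05 with MSN-PEG500. Derl1 (derlin-1), a channel component, had 127, 122 and 128 CPM in control, 138, 137 and 137 in Stober50, 135, 134 and 133 in Stober500, 162, 153 and 159 in MSN500 and 150, 159 and 154 in MSN-PEG500. Its control libraries were the lowest of all groups, and its log2 change was 0.33 ± 0.04 with MSN500 and 0.29 ± 0.04 with MSN-PEG500. Derl2 (0.24 ± 0.04 and 0.26 ± 0.04) and the HRD1 adaptor Sel1l (0.19 ± 0.04 and 0.24 ± 0.04) rose with both. Os9, a lectin that hands substrates to Sel1l, was not called: it stood at 164, 163 and 162 CPM in control, 158, 158 and 161 in MSN500 and 168, 167 and 152 in MSN-PEG500, and the 95% interval of its change with MSN500 was -0.12 to 0.05.

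Among the translocon genes 6 of 7 rose with MSN500 and 5 of 7 with MSN-PEG500, where 21.6% and 17.5% of all genes rose. Their median log2 changes were 0.22 and 0.20, beside 0.29 and 0.35 for the chaperones. Sec61a1, the pore-forming subunit of the translocon, had 379, 387 and 389 CPM in control, 415, 413 and 401 in Stober50, 389, 382 and 384 in Stober500, 482, 468 and 463 in MSN500 and 450, 456 and 428 in MSN-PEG500. All mesoporous libraries were above the rest, and the rise was 0.29 ± 0.04 with MSN500 (adjusted p = 1.64e-07) and 0.21 ± 0.04 with MSN-PEG500 (adjusted p = 3.83e-05). Ostc, a subunit of the oligosaccharyltransferase that sits at the translocon, had 140, 124 and 127 CPM in control, 137, 141 and 139 in Stober50, 135, 135 and 145 in Stober500, 168, 159 and 164 in MSN500 and 162, 157 and 163 in MSN-PEG500. Its 6 mesoporous libraries lay above the other 9, with log2 changes of 0.32 ± 0.04 and 0.30 ± 0.04. Ssr1 to Ssr4 encode the translocon-associated protein (TRAP) complex. Ssr3 had 390, 357 and 362 CPM in control, 376, 373 and 374 in Stober50, 361, 377 and 401 in Stober500, 423, 421 and 446 in MSN500 and 433, 431 and 475 in MSN-PEG500. The mesoporous libraries were the 6 highest. It rose by 0.22 ± 0.04 with MSN500 and 0.27 ± 0.04 with MSN-PEG500. Ssr2 had 272, 271 and 262 CPM in control, 287, 297 and 276 in Stober50, 276, 270 and 278 in Stober500, 338, 310 and 317 in MSN500 and 296, 303 and 277 in MSN-PEG500. MSN500 stood above every other group for Ssr2, while MSN-PEG500 shared the range of Stober50. It rose by 0.26 ± 0.04 with MSN500 and by 0.12 ± 0.04 with MSN-PEG500, the latter lost in 4 of 14 alternatives (adjusted p from 0.00352 to 0.0916), which include leaving out control replicate 3 (0.0765), MSN-PEG500 replicate 1 (0.0613) and MSN-PEG500 replicate 2 (0.0852). The pseudogene Gm10704 overlaps 12.8% of its exonic bases. Ssr1 rose with both (0.17 ± 0.04 and 0.20 ± 0.04), whereas Ssr4 was called with neither (0.08 ± 0.04 and 0.02 ± 0.04). Sec61b, the small tail-anchored subunit, rose with MSN500 (0.22 ± 0.05) and was not called with MSN-PEG500 (0.11 ± 0.05, adjusted p = 0.0956).

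None of the 3 genes of the sensor class, which includes Xbp1 but not the PERK gene, was called higher with any particle. Atf6 (chr1:170704674-170867771, minus strand) had 247, 249 and 238 CPM in control, 232, 224 and 226 in Stober50, 240, 233 and 250 in Stober500, 198, 205 and 200 in MSN500 and 198, 202 and 207 in MSN-PEG500. Its mesoporous libraries, at 198 to 207, were below the other 9, the lowest of which was at 224. Its level fell by 0.28 ± 0.04 on the log2 scale with MSN500 (adjusted p = 5.13e-07) and by 0.27 ± 0.04 with MSN-PEG500 (adjusted p = 1.17e-06). Xbp1 (chr11:5520659-5525893, plus strand) encodes the factor whose transcript IRE1 splices, and gene counts do not separate the spliced from the unspliced form. Its values were 344, 341 and 363 CPM in control, 349, 368 and 358 in Stober50, 359, 379 and 351 in Stober500, 304, 324 and 318 in MSN500 and 346, 337 and 339 in MSN-PEG500. The MSN500 libraries were below all others, and the MSN-PEG500 libraries overlapped with control. Xbp1 fell by 0.15 ± 0.04 with MSN500 (adjusted p = 0.00314), a call lost without control replicate 3 (adjusted p = 0.0563, in a range of 0.000879 to 0.0563 over 14 alternatives). With MSN-PEG500 it was at -0.04 ± 0.04 (adjusted p = 0.522). In the authors' deposited table the exon score of Xbp1, a test of unequal change between exons, was 0 in each particle comparison. That score was also 0 for every other gene of the list, except Manf with MSN500. Nothing about Xbp1 splicing follows from it. Ern1, the sensor kinase and nuclease IRE1, had 27.5, 26.8 and 27.9 CPM in control, 23.7, 21.7 and 26 in Stober50, 26.6, 25.5 and 25.4 in Stober500, 24.7, 25.4 and 26.3 in MSN500 and 27.8, 26 and 29.2 in MSN-PEG500. The libraries of Stober50, Stober500 and MSN500 lay below the control libraries, and those of MSN-PEG500 overlapped with them. Its change was -0.10 ± 0.06 with MSN500 and 0.02 ± 0.06 with MSN-PEG500, neither called. The sensors together held 0.0634 ± 0.000916% of library counts in control, 0.0528 ± 0.00136% in MSN500 and 0.0560 ± 0.000644% in MSN-PEG500.

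The summed share of all 39 genes separated the mesoporous groups from the rest. It was 2.04 ± 0.0511% of library counts in control, 2.09 ± 0.0396% in Stober50, 2.04 ± 0.0129% in Stober500, 2.35 ± 0.0157% in MSN500 and 2.39 ± 0.0244% in MSN-PEG500. By library, the mesoporous values ran from 2.33% to 2.42% and the other 9 from 2.00% to 2.12%. Chaperones made up the largest part, with 1.10 ± 0.0377% in control and 1.31 ± 0.0169% in MSN500. Disulfide enzymes went from 0.570 ± 0.0064% to 0.640 ± 0.00462% and degradation genes from 0.113 ± 0.00367% to 0.134 ± 0.00219% in the same groups. MSN-PEG500 replicate 3, which stood apart from its group on the second principal component of all genes, had the highest share of the 15 libraries, 2.42%. Without it 30 of the 39 genes were called with MSN-PEG500, at a median log2 change of 0.234.

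**Figure D4:**
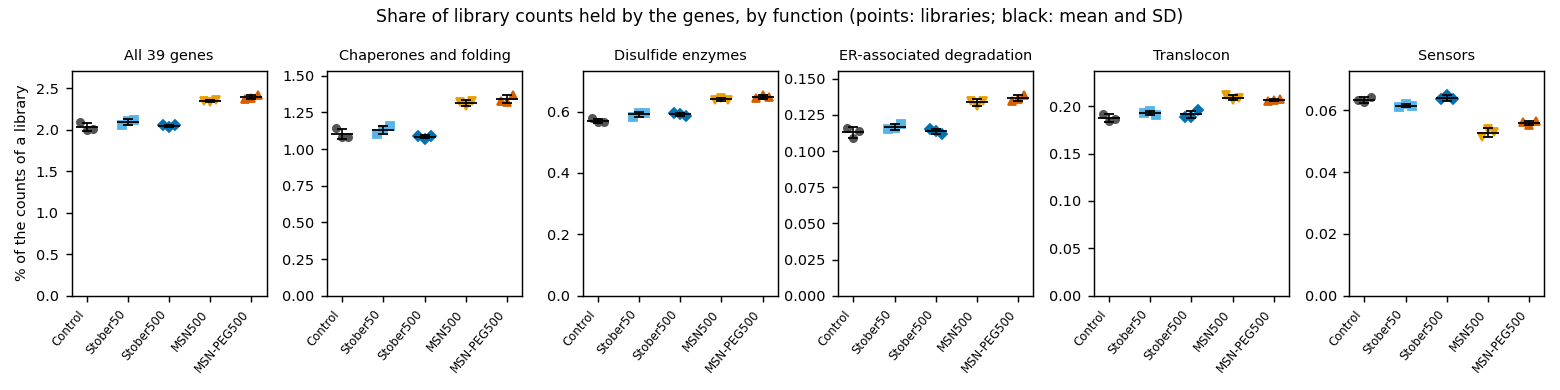
Percentage of the counts of each library (points) that fell on all 39 genes and on each function, with the mean and SD of each group in black, on axes that start at 0. The share of all 39 genes is 2.33% to 2.42% in the mesoporous libraries and 2.00% to 2.12% in the others, while the share of the sensors is lowest with MSN500.

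Promoter elements and changes were set side by side for the 31 genes with a window. Of the 12 genes with any of the 3 motifs, 11 rose with MSN500 and 1, Canx, was not called. Of the 19 without a motif, 14 rose, 1 fell (Xbp1) and 4 were not called. Among all genes tested 21.6% rose and 21.2% fell, and the difference between genes with and without a motif was not tested. The genes with the printed ER stress elements ranged from 0.08 (Canx) to 0.74 (Creld2) in log2 change, so genes with the same element differed widely. Manf, Hyou1, Derl1, Ssr2, Sec61a1, Ostc, Atf6 and Sil1 had no window in the table.

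MSN-PEG500 was compared directly with MSN500, which carries no polyethylene glycol. No gene of the list rose and 2 fell, Creld2 and Ssr2, where 4.1% of all genes rose and 3.92% fell. The log2 difference was -0.14 ± 0.05 for Creld2 (adjusted p = 0.0499) and -0.14 ± 0.04 for Ssr2 (adjusted p = 0.0348). For both genes every MSN-PEG500 library was below every MSN500 library. That held for 10 of the 39 genes and 14.3% of all genes, and the reverse for 3 and 13.6%. Neither the Creld2 call nor the Ssr2 call was kept in every fit with 1 library left out. None of the 39 genes was called without MSN500 replicate 1 or 3 or without MSN-PEG500 replicate 1 or 3. There was 1 call without MSN500 replicate 2, and there were 5 without MSN-PEG500 replicate 2. None was called when only these 2 groups were fitted. Sdf2l1 just missed the threshold (-0.14 ± 0.04, adjusted p = 0.0531). For Hspa5 the 95% interval of the difference was -0.03 to 0.13, for Manf -0.13 to 0.07 and for Atf6 -0.07 to 0.09. Over all 39 genes these intervals lay between -0.24 and 0.27. The dosage labels of the 2 particles differ (84 and 111.8 µg/ml).

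MSN500 was also set against Stober500, a nonporous particle of the same nominal size with a lower dosage label (16.8 against 111.8 µg/ml). In MSN500 30 of the 39 genes were higher and 2 lower, Xbp1 and Atf6, where 19.9% of all genes were higher and 19.5% lower. The median log2 difference was 0.24. Creld2 was higher by 0.74 ± 0.05, Manf by 0.59 ± 0.05 and Hyou1 by 0.51 ± 0.04, and the difference in Xbp1 was -0.20 ± 0.04 (adjusted p = 0.000138). Canx was called here (0.11 ± 0.04, adjusted p = 0.036) and lost in 5 of 14 alternatives, with adjusted p from 0.0049 to 0.196; the libraries whose omission ended the call were Stober500 replicate 1 (0.0873), Stober500 replicate 2 (0.196), MSN500 replicate 1 (0.116) and MSN500 replicate 3 (0.0626).

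Stober50 was the smaller nonporous particle. In its comparison with control 4 genes of the list rose (Manf, Creld2, Sdf2l1 and Derl1) and 1 fell (Ern1), where 3.85% of all genes rose and 3.72% fell. Before adjustment, 17 of the 39 had a p under 0.05, against 22.1% of all genes. The log2 change was above 0 for 31 of the 39, against 49.6% of all genes. Manf changed most, by 0.22 ± 0.05 (adjusted p = 0.00725). Sdf2l1 rose by 0.17 ± 0.04 (adjusted p = 0.0165), Creld2 by 0.17 ± 0.05 (adjusted p = 0.0256) and Derl1 by 0.12 ± 0.04 (adjusted p = 0.0398). The 3 Stober50 libraries lay above the 3 control libraries for each of these 4 genes, and replicate 1 was the lowest Stober50 library for Manf, Creld2 and Sdf2l1. These 4 were picked by their call in the same libraries, so the separation adds no support. Of the 39 genes, 15 lay wholly above control and 2 wholly below, against 13.9% and 13.4% of all genes. Ern1 fell by 0.20 ± 0.06 (adjusted p = 0.0488), and its call was lost in 10 of 14 alternatives (adjusted p from 0.0168 to 0.323). The calls were not kept with each library left out, and leaving out Stober50 replicate 2 left no gene of the list called. The log2 changes were then 0.193 for Manf, 0.141 for Sdf2l1, 0.134 for Creld2, 0.133 for Derl1 and -0.131 for Ern1. Leaving out control replicate 1 left 1, control replicate 2 left 2, and any of control replicate 3, Stober50 replicate 1 and Stober50 replicate 3 left 3. With the trend on gene length removed Manf alone of these 5 was still called, and Sec61a1 was called in addition. The other chaperones and folding factors were not called. Their log2 changes ran from -0.10 ± 0.09 (Dnajb9) to 0.14 ± 0.06 (Sil1, adjusted p = 0.15). Hspa5 was at 0.05 ± 0.04 (95% interval -0.03 to 0.13).

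With Stober500 none of the 39 genes was called, where 0% of all genes rose and 0.00781% fell, a single gene. At an unadjusted p under 0.05 there were 4 of the 39, against 11.9% of all genes. DESeq2 called 1, Ssr4, whose log2 change was 0.15 ± 0.04 (edgeR adjusted p = 0.133). The 95% interval of the Hspa5 change was -0.08 to 0.08 and that of Creld2 -0.10 to 0.09. Over all 39 genes the intervals lay between -0.26 and 0.23. Between the nonporous particles, whose dosage labels are 13.1 and 16.8 µg/ml, 3 genes were higher with Stober50 and none lower, where 1.41% of all genes were higher and 0.828% lower. These were Hyou1 (0.16 ± 0.04, adjusted p = 0.0304), Manf (0.19 ± 0.05, adjusted p = 0.0453) and Creld2 (0.17 ± 0.05, adjusted p = 0.0484). None of the 39 was called without Stober50 replicate 2, Stober50 replicate 3 or Stober500 replicate 2, 1 was called without Stober500 replicate 1 or 3, and 6 without Stober50 replicate 1.

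The same pathways hold further genes, and 95 of a list of 99 were in the table and tested. With MSN500 39 of these rose and 8 fell, at a median log2 change of 0.09, where 21.6% of all genes rose and 21.2% fell. With MSN-PEG500 34 rose and 7 fell, where the shares of all genes were 17.5% and 16.9%. With Stober50 3 rose (Edem2, Ube2j2 and Srprb), a share near the 3.85% of all genes, and none was called with Stober500. Translocon and glycosylation genes had 16 rises and no falls among 28 with MSN500, and degradation genes 10 rises and 1 fall among 20. The further chaperones were mixed, with 5 rises and 4 falls among 23. The further disulfide enzymes had 3 rises and 1 fall among 13.

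In the PERK and CHOP arm 4 of 6 genes rose with each mesoporous particle, where 21.6% (MSN500) and 17.5% (MSN-PEG500) of all genes rose. Whether PERK activity lay behind these rises was not tested. Ddit3, the stress transcription factor CHOP, had 39.1, 27.8 and 30 CPM in control, 32.1, 34.5 and 34.3 in Stober50, 30.7, 31.6 and 30.8 in Stober500, 46.7, 46.4 and 48.6 in MSN500 and 50.3, 49.7 and 42.4 in MSN-PEG500. The mesoporous libraries were above the rest, and control replicate 1 was the highest of the other 9. It rose by 0.54 ± 0.09 with MSN500 (adjusted p = 7.79e-05) and 0.55 ± 0.09 with MSN-PEG500. Atf4, the factor whose translation PERK favours, rose by 0.39 ± 0.04 and 0.37 ± 0.04, and its target Trib3 by 0.33 ± 0.11 and 0.41 ± 0.11. Ppp1r15a (GADD34), which recruits the phosphatase that ends the translation block, had 97.1, 87.4 and 94 CPM in control, 96.4, 99.1 and 107 in Stober50, 91.3, 93.9 and 96.4 in Stober500, 114, 129 and 139 in MSN500 and 135, 140 and 121 in MSN-PEG500. Its 6 mesoporous libraries were also the highest, and it rose by 0.46 ± 0.07 and 0.51 ± 0.07. Its constitutive relative Ppp1r15b fell with MSN500 by 0.13 ± 0.04 (adjusted p = 0.0117) and was at -0.05 ± 0.04 with MSN-PEG500. The gene of the PERK kinase itself, Eif2ak3, was not called, at 0.06 ± 0.05 and 0.11 ± 0.05. Besides Ddit3 and Ppp1r15a, the largest rise with MSN500 was in Selk, a selenoprotein of the degradation complex (0.50 ± 0.04, adjusted p = 4.64e-10). The largest called falls were in Cnpy4 (-0.36 ± 0.06) and Cnpy3 (-0.24 ± 0.05), whose proteins assist the folding of Toll-like receptors, and in Mbtps1 (-0.21 ± 0.04, adjusted p = 7.16e-05), the site-1 protease that cleaves ATF6. With MSN-PEG500 these 3 fell too, by 0.44 ± 0.06, 0.22 ± 0.05 and 0.14 ± 0.04.

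**Figure D5:**
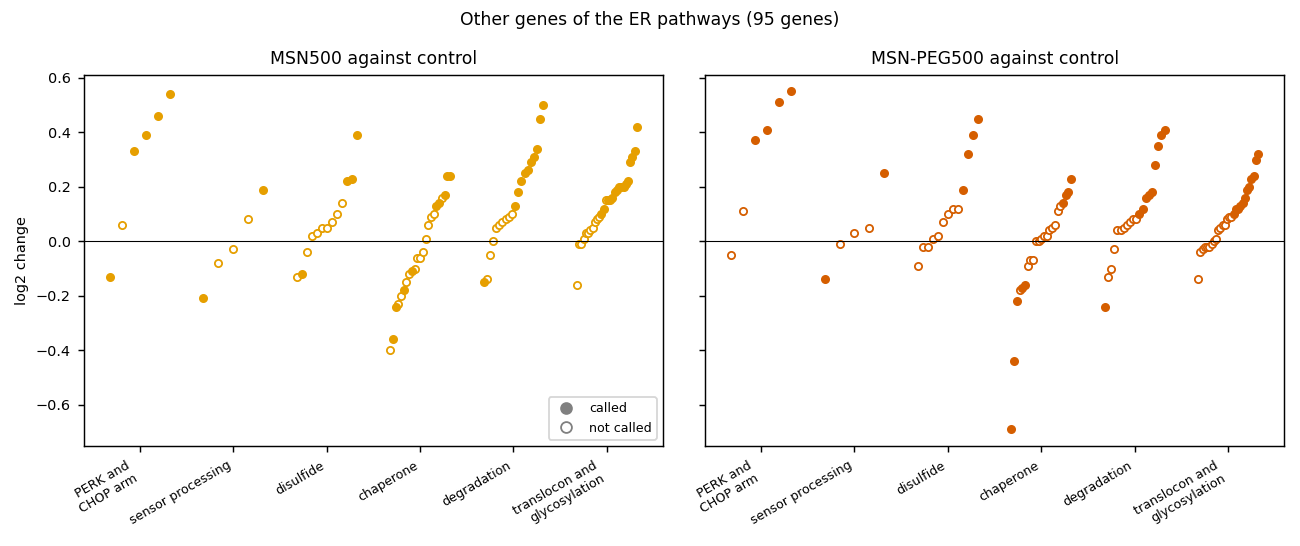
Log2 change of each of the 95 further ER genes with MSN500 (left) and MSN-PEG500 (right), by function and sorted within it; filled points passed an adjusted p under 0.05. The rises of the PERK and CHOP arm reach 0.54 with MSN500, and the chaperone group spans both directions.

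By their adjusted p under 0.05, the authors' deposited table has 31 of the 39 genes higher and 2 lower with MSN500, 28 higher and 1 lower with MSN-PEG500, 5 higher and 1 lower with Stober50 and 1 higher with Stober500. These calls come from the same libraries and are not independent evidence. The share of all genes called in that table was not counted here. One gene, Manf with MSN500, had an exon adjusted p under 0.05 in the authors' deposited table (0.00175), a test that did not model replicates. Macrophage identity was visible in every library: all 7 macrophage markers passed the filter, with Lyz2 at 9057 to 11488 CPM and Csf1r at 2478 to 3525 CPM. Of the marker lists for other cells, fibroblasts had 1 of 5 genes tested, lymphocytes 2 of 6, erythroid and granulocyte cells 1 of 5 and epithelial cells 0 of 4, none above 10.2 CPM. Of the 7 macrophage markers, 4 lay wholly below control in MSN500 (against 26.3% of all genes), 1 wholly above (against 26.5%) and 2 overlapped. Those below were Adgre1 (269 to 305 CPM, against 340 to 369 in control), Csf1r (2486 to 2525 against 3407 to 3525), Itgam (433 to 490 against 522 to 583) and Ptprc (260 to 282 against 291 to 303). Cd68 lay above, at 1290 to 1349 CPM against 924 to 997. In MSN-PEG500 3 lay below (Adgre1, Csf1r and Lyz2, against 21.3% of all genes), 1 above (Cd68, against 21.4%) and 3 overlapped. The part of these markers in the changes above was not tested.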

How the data were processed

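RNA of 15 RAW264.7 libraries was sequenced. The submitters' processing notes name the builds GRCm38 and mm10 and the tools limma 3.28.21, DESeq2 and Novoalign 2.08.03. The authors' deposited counts are unnormalized whole numbers per gene, per the file headers, and the authors obtained FPKM by dividing them by exon length and by the reads of the library. The authors' deposited log2 ratios are from DESeq2 and give control over particle, so their sign is turned here. The deposited score of a gene or its exons is -10 log10 of the authors' adjusted p-value. Use of strand: not given in the sources used here.

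The genes and lists were chosen with earlier results of these data known. The tests were run in R 4.3.3 with edgeR 4.0.16. Genes passing filterByExpr were kept, TMM factors (0.974 to 1.02) were applied, and one quasi-likelihood model of the 5 groups was fitted to all 15 libraries (common biological coefficient of variation 0.0418). Tests were two-sided, with Benjamini-Hochberg adjustment over 12798 genes at 0.05. SEs are the log2 change over the square root of F, and 95% intervals use the t distribution with the total degrees of freedom of that fit. The fit was tested on simulated data. Library totals were 17683003 to 27253289 counts, and the limit of 3 counts for a count of 0 covers counting error only. Replicate pairs differed by 2.19 to 6.81 chi-square units per degree of freedom, so none was a duplicate.

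Values in every library are given for the 3 genes of each function with the smallest p over the 5 groups, all sensors, genes called against the direction of most, and up to 5 genes called with Stober50, with Stober500 or between the mesoporous particles. Of the other ER genes, the PERK and CHOP arm and the 3 largest called rises and falls with MSN500 are named. Hspa5, Os9 and genes named beyond these were chosen after their values were seen. The other 4 genes of the list of 99 are not analysed here. Gene positions follow the deposited annotation, counting the start from 1, motif distances follow the RefSeq start, and overlaps come from GENCODE M21. Motifs were searched on both strands of RefSeq promoter windows. Alternatives were RLE and upper quartile factors, no filter, DESeq2 1.42.0, limma-voom (limma 3.58.1), only the groups compared, a replicate block, a length trend removed and each library left out. Protein sequences were not analysed here.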

Additional observations from a re-analysis of the deposited data

How the results depend on the processing

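The rises with MSN500 and MSN-PEG500 kept their direction and their number within 1.5 times in all alternatives. The calls of Stober50, of Stober50 against Stober500 and of MSN-PEG500 against MSN500 were not all kept with 1 library left out. Of 104 calls of single genes, 85 were kept in each of their alternatives, 19 were lost in at least 1 and 0 reversed. With Stober50, 2 genes were called with the length trend removed (Manf and Sec61a1). With Stober500, DESeq2 called 1, and the median log2 change was 0.0285 with the length trend removed. With upper quartile factors the median was 0.237 for MSN500 and 0.232 for MSN-PEG500. Stober50 against Stober500 gave 1 call with upper quartile factors, limma-voom or only these groups, and 6 with DESeq2. MSN-PEG500 against MSN500 gave 1 call with RLE factors, 4 with DESeq2, 0 with only these groups and 1 with the length trend removed, where the median was -0.0211. The cause of these shifts was not tested.

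With 1 library left out, calls ranged from 0 to 3 (Stober50), 0 to 0 (Stober500), 31 to 34 (MSN500), 27 to 30 (MSN-PEG500), 0 to 6 (Stober50 against Stober500), 29 to 33 (MSN500 against Stober500), 0 to 5 (MSN-PEG500 against MSN500) and 33 to 37 (all 5 groups). Medians ranged from 0.0540 to 0.0888 (Stober50), -0.000489 to 0.0196 (Stober500), 0.261 to 0.277 (MSN500), 0.234 to 0.289 (MSN-PEG500), 0.0321 to 0.0576 (Stober50 against Stober500), 0.218 to 0.257 (MSN500 against Stober500) and -0.00769 to 0.00387 (MSN-PEG500 against MSN500).

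Pairing by replicate number was not evident: in 0 of 7 comparisons did every same-numbered pair correlate above 0.1. This check cannot exclude a weaker pairing. The replicate block gave 5, 0, 33, 30, 2, 32 and 3 calls for Stober50, Stober500, MSN500, MSN-PEG500, Stober50 against Stober500, MSN500 against Stober500 and MSN-PEG500 against MSN500, and 35 over all 5 groups.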
